A study of Mus musculus with 4 samples.

Results

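The contacts described here joined pieces of the same autosome that lay over 10 Mb apart. They were taken from 2 deposited lists of Micro-C contacts between 8 kb bins, 1 list for embryonic stem cells and 1 for motor neurons, by keeping every autosomal pair of bins past that distance. This gave 689013 of the 23095428 listed pairs in the stem cells (2.98%) and 371843 of 21005697 in the motor neurons (1.77%). The pairs were summed into blocks of 1 Mb by 1 Mb, and each block was divided by the mean of all blocks of its chromosome that were equally far apart. That ratio, observed over expected, is above 1 where 2 regions met more often than regions so far apart usually did.

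In Micro-C, chromatin is fixed, digested down to nucleosomes with micrococcal nuclease and ligated, and each sequenced ligation product between 2 places counts as 1 contact. The cells were the E14 line of mouse embryonic stem cells (ESCs), grown with LIF and the 2 inhibitors of the 2i medium, and motor neurons (MNs) derived from that line through embryoid bodies with retinoic acid and a smoothened agonist (SAG). In both states wild-type (WT) cells were set beside PATZ1 KO cells, in which the zinc finger gene Patz1 had been disrupted with CRISPR/Cas9 and from which lines had been isolated. Each of the 4 groups was 1 library from its own pool of cells, so no difference has a replicate check, no test was possible, and the KO line and the genotype cannot be told apart.

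All intervals are at 95% and cover counting error only. The libraries appear in each list as columns 1 and 2 without a name. They were read as WT and PATZ1 KO, after the naming of the comparison, and every KO direction rests on that. Micro-C reads no RNA, so the labelled cell types could not be set against marker genes.

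Chromatin within a chromosome is sorted into an active and an inactive compartment. Active, gene-rich and early-replicating segments touch each other over long distances, inactive and gene-poor segments do the same, and contacts between both kinds are depleted. Tandem arrays of olfactory receptor genes and of KRAB zinc finger genes are known for their heterochromatin marks, and gene-poor domains tend to lie at the nuclear lamina. Mouse autosomes carry the centromere at the low-coordinate end, where satellite repeats of different chromosomes gather in shared clusters.

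A pair of bins was listed only when both libraries of a cell state had at least 1 contact there. Beyond 10 Mb, 97.4% of listed pairs in WT and 97.8% in PATZ1 KO ESCs, and 98.4% in WT and 98.2% in PATZ1 KO MNs held exactly 1 contact, so that the sum over a block was close to the number of pairs seen in both genotypes. The WT and KO patterns of one cell state are therefore close to each other by construction, and the KO values are no independent repeat. The number of pairs seen in both genotypes also grows with the product of their contact rates. Ratios between blocks or between states are therefore wider than ratios of the contact rates themselves. Contacts of a listed pair beyond the first do not carry this product, so their log2 values are on a narrower scale. Contacts over 10 Mb numbered 708619 in WT and 705482 in PATZ1 KO ESCs, and 378516 in WT and 379182 in PATZ1 KO MNs. The whole lists held 170946673, 160496081, 110991835 and 118032533 contacts. Of 2413 regions of 1 Mb, 1428 had listed pairs in at least 100 of their bins in both states and were used. The 55635 blocks among them held 60.4% to 61.9% of the contacts beyond 10 Mb. Chromosomes 6 and 8 stood apart in all 4 libraries. In WT ESCs they had 1.59 and 1.53 times the median contacts of an autosome per Mb. Their blocks 11 to 19 Mb apart held 2.04 and 2.12 times the median contacts per block. The expected values were set within each chromosome, but 49.7% and 22.8% of the 4460 blocks deep enough to compare 1 by 1 came from these chromosomes.

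Blocks up to 53 Mb apart held more contacts in ESCs, and blocks over the longest distances held more in MNs. The counts per block were not scaled for depth, which was greater in the ESC lists. The size of the ESC excess and the distance where the order turns therefore depend on depth. At 11 Mb a block held 21.7 contacts on average in WT ESCs and 13.9 in WT MNs. At 20 Mb the values were 18.5 and 7.14, which is 2.59 times as many in ESCs, and at 40 Mb they were 6.11 and 3.33. In these unscaled counts the order turned at 54 Mb. At 80 Mb WT ESCs had 0.541 and WT MNs 1.11 contacts per block, and at 100 Mb 0.152 and 0.632, which is 4.17 times as many in MNs although the MN list held fewer contacts in all. As shares, distances over 40 Mb took up 12.47% plus 0.75% of the contacts in the blocks of WT ESCs, and 20.4% plus 3.51% in WT MNs, the first value of each pair being for 40 to 80 Mb and the second for over 80 Mb. The shares of WT ESCs and WT MNs were 39.1% and 38.0% at 10 to 20 Mb, and 47.7% and 38.1% at 20 to 40 Mb. The PATZ1 KO curves lay on the WT curves, with 18.4 contacts per block at 20 Mb in ESCs and 7.13 in MNs. The curves did not fall at every step. In WT ESCs a block held 19.2 contacts at 13 Mb and 20.1 at 15 Mb, and from 74 to 75 Mb the value went from 0.658 to 0.870 in WT ESCs and from 1.22 to 1.44 in WT MNs. A larger step at 84 to 85 Mb is taken up with the blocks of chromosome 1 below.

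**Figure D1:**
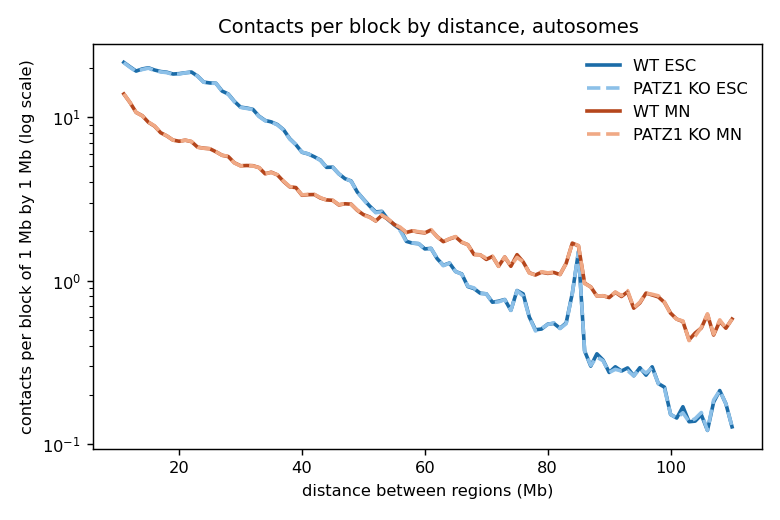
Mean contacts per block of 1 Mb by 1 Mb (log axis) against the distance between its regions in Mb, for the 4 libraries. The ESC curves lie above the MN curves up to 53 Mb and below them after that, and WT and KO of one state overlap.

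Regions were then classed by the protein-coding genes that start in them, which uses no contact data. Gene-rich regions had at least 9 such genes (509 regions), gene-poor regions at most 3 (485 regions), and 434 lay between. Gene-rich regions preferred each other in every library. Blocks of 2 gene-rich regions stood at 1.48 times the expected value in WT (1.47 to 1.49) and 1.48 in PATZ1 KO ESCs, and 1.60 in WT (1.59 to 1.62) and 1.60 in PATZ1 KO MNs. Blocks of a gene-rich and a gene-poor region were depleted, at 0.638 in WT (0.634 to 0.643) and 0.639 in PATZ1 KO ESCs, and 0.737 in WT (0.730 to 0.745) and 0.738 in PATZ1 KO MNs. The avoidance between both kinds was thus smaller in MNs, while the preference among gene-rich regions was larger. By distance, the rich-rich value was higher in WT MNs at 10 to 20 Mb (1.47 and 1.60) and at 20 to 40 Mb (1.42 and 1.57), and the order turned at 40 to 80 Mb, with 1.715 in WT ESCs and 1.665 in WT MNs.

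Taken over all distances, gene-poor regions showed no such excess among themselves. Blocks of 2 gene-poor regions stood at 0.982 in WT (0.974 to 0.990) and 0.981 in PATZ1 KO ESCs, and 0.893 in WT (0.883 to 0.903) and 0.895 in PATZ1 KO MNs. By distance, WT ESCs had a slight excess at 20 to 40 Mb, at 1.03 (1.02 to 1.04), and values below 1 at 10 to 20 Mb (0.984) and 40 to 80 Mb (0.819), whereas WT MNs were below 1 at each of these distances (0.906, 0.922 and 0.837). Blocks of 2 regions of middle gene number fell from 1.27 in WT ESCs to 1.14 in WT MNs. The contrast between like and unlike regions was summarised as the preference strength, the mean of the log2 values of rich-rich and poor-poor blocks minus that of rich-poor blocks. It was 0.92 in WT ESCs and 0.70 in WT MNs, a difference of -0.22 (-0.24 to -0.20) on the log2 scale, and -0.22 between the PATZ1 KO libraries. When contacts were drawn at random from the ESC libraries until as many pairs beyond 10 Mb stayed listed as in MNs, the difference was -0.17. It was -0.090 with regions of 2 Mb, and -0.057 (-0.21 to 0.10) from only the contacts beyond the first of each listed pair, where the interval includes 0 and the PATZ1 KO libraries, at 0.15 in ESCs and 0.16 in MNs, showed no fall. Values from these contacts are on a narrower log2 scale, so their size cannot be set directly beside -0.22.

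**Figure D2:**
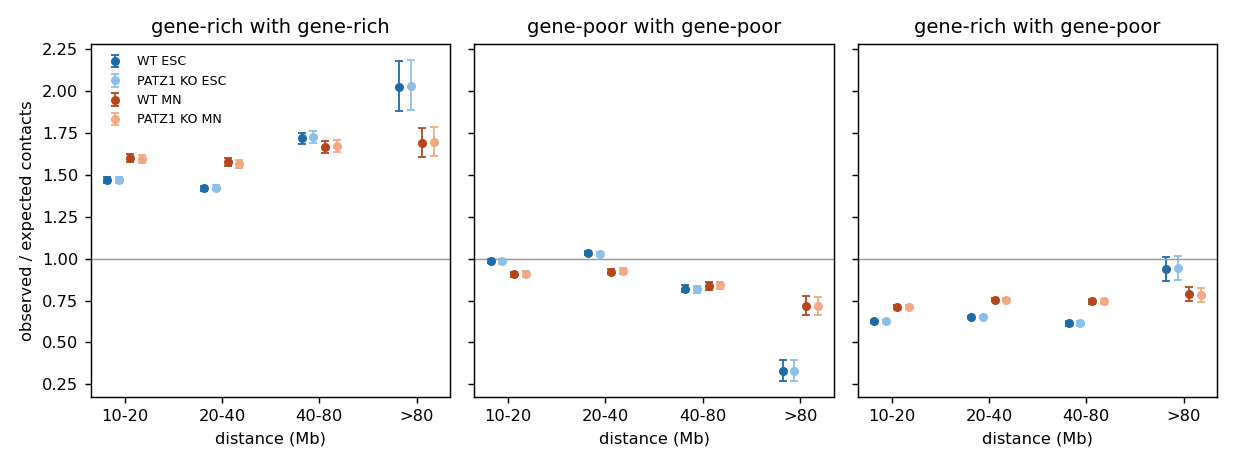
Observed over expected contacts (linear axis, line at 1) against the distance between regions in Mb, for blocks of 2 gene-rich, 2 gene-poor, or 1 gene-rich and 1 gene-poor region, in the 4 libraries, with 95% intervals for counting error. Rich-rich points lie above 1 at every distance, and rich-poor points are higher in MNs than in ESCs up to 80 Mb.

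The lower strength in MNs was found in 16 of 18 chromosomes with enough blocks, with a median difference of -0.20 between WT libraries. Chromosomes of one library share its cells and are not replicates. Chromosome 11 was the strongest exception, at 0.56 in WT ESCs and 1.15 in WT MNs, and chromosome 16 was the other, at 0.28 and 0.51. Chromosome 8 had the highest strength in both states, at 1.497 in WT ESCs and 1.165 in WT MNs. By distance, the strength in WT ESCs and WT MNs was 0.94 and 0.76 at 10 to 20 Mb, 0.89 and 0.67 at 20 to 40 Mb, and 0.95 and 0.66 at 40 to 80 Mb.

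Finer steps of gene number gave a graded picture in ESCs and a steeper end in MNs. In 8 bins of gene number, the 160 regions with the most genes met each other at 1.73 times the expected value in WT ESCs and 2.46 times in WT MNs. The 196 regions of the next bin, with up to 19 genes, met that top bin at 1.42 and 1.63, but met each other at 1.60 and 1.52. The 153 regions of the bin below, with up to 11 genes, met each other at 1.49 and 1.36. The larger rich-rich value of MNs thus came mainly from blocks with the bin of most genes. The 269 regions with at most 1 gene met each other at 0.970 in WT ESCs and 0.909 in WT MNs, and met the most gene-rich bin at 0.519 and 0.647. When regions were classed by GC content instead, at most 40.3% against at least 43.5%, the contrast was larger. Blocks of a GC-high and a GC-low region stood at 0.429 in WT ESCs and 0.539 in WT MNs, blocks of 2 GC-high regions at 1.68 and 1.69, and blocks of 2 GC-low regions at 1.04 and 1.11. Classed by GC content, the AT-rich regions therefore met each other at slightly more than the expected value, which the gene-poor regions, over all distances, did not.

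**Figure D3:**
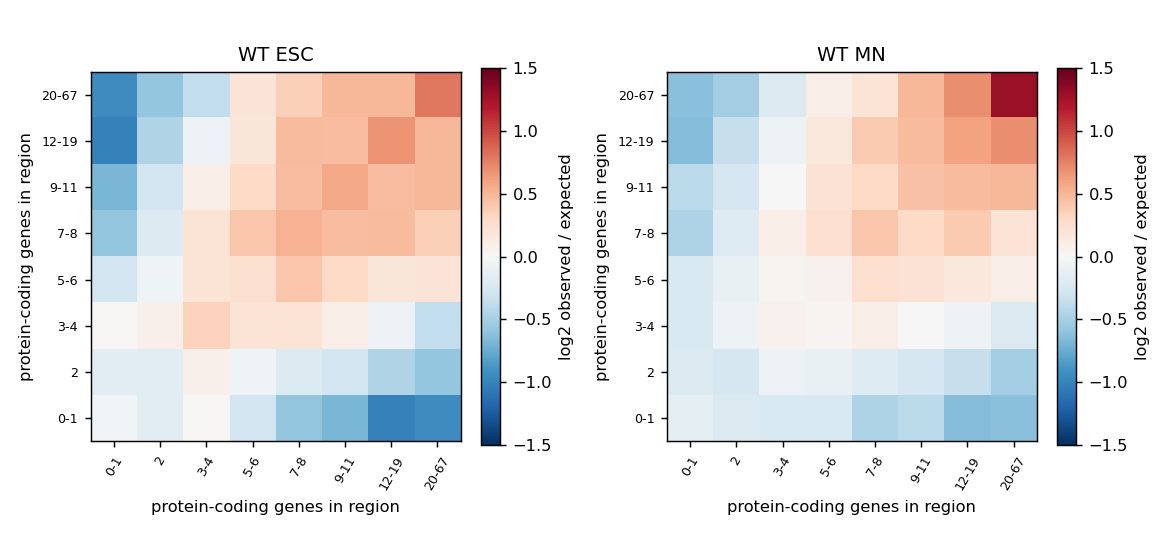
Observed over expected contacts between regions in 8 bins of gene number, from fewest to most genes on both axes, as a log2 colour scale centred on 0, for WT ESCs and WT MNs. The corner of the most gene-rich bin corresponds to a ratio of 1.73 in WT ESCs and 2.46 in WT MNs, and the corner of fewest with most genes to 0.519 and 0.647.

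Over 80 Mb the strength appeared to turn around, at -0.20 in WT ESCs (-0.38 to -0.02) and 0.49 in WT MNs (0.38 to 0.59). Those values depended on chromosome 1, of which 3 blocks with many contacts were picked out after their values were seen. Leaving out these blocks alone was not tested. The first of these blocks joined the first megabase with sequence, where Xkr4 starts, and the region 85 Mb away that holds the Ugt1a cluster. That cluster encodes enzymes that conjugate bilirubin and drugs. The block had 355 (WT) and 360 (PATZ1 KO) contacts in ESCs, and 231 (WT) and 233 (PATZ1 KO) contacts in MNs. Other blocks at the same distance on chromosome 1 had 0.22 contacts on average in WT ESCs and 0.64 in WT MNs. The next region, with Rp1, had 152 contacts with the Ugt1a region in each ESC library and 235 and 233 in WT and PATZ1 KO MNs. The block beyond that, with Rgs20, a regulator of G protein signalling, had 23 and 56 in the WT libraries.

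On the Ugt1a side these contacts came from a single stretch. In WT ESCs all 530 contacts of the 3 blocks fell into 10 consecutive bins, 80 kb at chr1:88208001-88288000 of the mm10 assembly, which hold the last part of the Ugt1a cluster, Mroh2a, Hjurp, a histone chaperone that loads the centromeric CENP-A, and Trpm8, the cold-sensing channel of sensory neurons. In WT MNs the same 10 bins held 521 of 522 contacts. On the other side the contacts of the first block were spread over 104 bins in ESCs and 93 in MNs, and no pair of bins had more than 4. An 80 kb stretch that meets several megabases at the start of the chromosome far above the usual level was thus present in all 4 libraries. Whether the order of sequence in these cells is that of the assembly here was not tested, so the 85 Mb is a distance in the assembly. Without chromosome 1, the strength over 80 Mb was 0.78 in WT ESCs (0.55 to 1.01) and 0.67 in WT MNs (0.55 to 0.79), and the step in the decay curve at 85 Mb fell from 1.495 to 0.475 contacts per block in WT ESCs.

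Among the 34 blocks that were at least 40 Mb apart and held at least 40 contacts in a library, a set also drawn up after the values were seen, 18 lay on chromosome 6 and 7 spanned over 60 Mb. That limit is a raw count, and blocks of chromosome 6 that were 11 to 19 Mb apart held 2.04 times the median contacts in WT ESCs. This ratio does not cover blocks at least 40 Mb apart. The share of all blocks so far apart that lie on chromosome 6 was not computed. The pair of chromosome 8 regions holding Dlc1, a GTPase-activating protein, and Glg1 had 105 (WT) and 102 (PATZ1 KO) contacts in ESCs, and 73 (WT) and 54 (PATZ1 KO) contacts in MNs. On the Glg1 side they came from 2 bins in ESCs and 1 bin in MNs, and a single pair of bins gave 24 of the contacts in WT ESCs. Such pairs with many contacts between isolated bins were rare: 35 of 689013 pairs had at least 10 contacts in WT ESCs, and 15 of 371843 in WT MNs.

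Individual blocks were compared where at least 10 contacts were expected in all 4 libraries, which left 4460 blocks 10 to 32 Mb apart. The blocks with the highest lower limit of observed over expected are a selection on these values, so their levels are descriptions. The strongest block of WT ESCs joined 2 gene-poor regions of chromosome 8, one with Adamts18, a secreted metalloproteinase (chr8:113000001-114000000), and one with Nrp1, the neuropilin receptor for semaphorins and VEGF (chr8:128000001-129000000). It held 385 (WT) and 377 (PATZ1 KO) contacts in ESCs, and 20 (WT) and 22 (PATZ1 KO) contacts in MNs. This was 9.92 times the expected value in WT ESCs and 1.35 times in WT MNs, a 7.37-fold decrease (4.71 to 12.2). A neighbouring block with Wwox on one side and the polarity gene Pard3 on the other went the same way, with 252 contacts in WT ESCs, 240 in PATZ1 KO ESCs and 18 in each MN library. The Nrp1 region lies at the high-coordinate end of chromosome 8. The last 10 usable regions there met the rest of the chromosome at 1.51 times the expected value in WT ESCs and 1.13 in WT MNs. The part of that difference in these blocks was not tested.

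The strongest blocks of WT MNs joined gene-rich regions. On chromosome 8 the region of Kifc3 and Cnot1, a scaffold of the deadenylase complex, and the region of Agrp and Dus2 had 113 (WT) and 109 (PATZ1 KO) contacts in ESCs, and 166 (WT) and 170 (PATZ1 KO) contacts in MNs, which was 5.94 times the expected value in WT ESCs and 15.6 times in WT MNs. On chromosome 6 the region of Tcf7l1, a repressor in the Wnt pathway, and the region of Tet3, which oxidises 5-methylcytosine, had 198, 186, 286 and 286 contacts in the same order, 5.32 and 12.5 times the expected value in WT ESCs and WT MNs. The region pairs of Nlrp9b and Mark4 with Wdr62 on chromosome 7 stood at 4.17 and 6.92. In all 3 blocks the MN value was the higher one although MNs had fewer contacts beyond 10 Mb.

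A pair of blocks led in both states. On chromosome 11 the region of Tex14 and that of Brca1, the DNA repair gene, stood at 6.04 times the expected value in WT ESCs and 7.87 times in WT MNs. On chromosome 9 the first region with sequence and the region of Cdon stood at 9.18 and 7.96. In that block a single pair of bins gave 59 of the 195 contacts in WT ESCs, and the other leading pairs of bins there met in the same bin on the Cdon side. The count of that block therefore rests largely on a few bins rather than on whole regions. How uniquely reads map to those bins was not tested.

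Between WT ESCs and WT MNs, 725 of the 4460 blocks (16.3%) were at least 2-fold higher in MNs and 757 (17.0%) at least 2-fold lower. The interval of the ratio lay beyond 1 for 401 and 367 of them. All 725 and all 757 went the same way between the PATZ1 KO libraries, which share their listed pairs with WT. Blocks of a gene-rich and a gene-poor region were the ones that rose most often: 305 of 1174 were higher in MNs (26.0%) and 206 lower (17.5%), beside 71 and 78 of 480 rich-rich blocks and 75 and 118 of 653 poor-poor blocks.

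The blocks with the clearest rise included the region of Crtc1 and Ell, which encode a coactivator of CREB and an elongation factor, with the region of Il15 on chromosome 8. It had 1 contact in each ESC library and 17 in each MN library. On chromosome 6 the region of Nanog and Dppa3, genes of the naive pluripotent state, met the region of Prp2 with 8 contacts in each ESC library, 37 in WT and 38 in PATZ1 KO MNs, a 7.49-fold increase over the expected values in WT (3.43 to 18.6). The same Nanog region lost contact in the other direction. Its block with the region of Etnk1, 21 Mb away, held 127 contacts in WT ESCs, 128 in PATZ1 KO ESCs and 4 in each MN library, a 12.1-fold decrease (4.61 to 45.1).

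The other leading decreases lay on chromosome 8, as did the Nrp1 block. A region with no protein-coding gene start, chr8:103000001-104000000, and the region of the transcription factor Maf had 136 contacts in WT ESCs, 138 in PATZ1 KO ESCs and 6 in each MN library. The region of Terb1 and Bean1 met that of Wwox with 65 contacts in WT ESCs, 64 in PATZ1 KO ESCs and 2 in each MN library. The region of Chd9 and Tox3 met another region without a gene start, chr8:101000001-102000000, with 28 contacts in each ESC library and none in the MN libraries, where a count of 0 allows up to 3.

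Each region was then given a score, the log2 of observed over expected of its contacts with gene-rich regions minus the same for gene-poor regions, so that a score above 0 means that the region met gene-rich regions more than gene-poor ones. It was computed for 1407 regions in ESCs and 1402 in both states. Scores ran from -3.52 to 5.80 in WT ESCs and from -2.39 to 4.27 in WT MNs, a narrower range. Across the 1402 regions, which share the libraries and the expected values and are not independent, the scores of WT ESCs and WT MNs had a Pearson correlation of 0.850. The score went with GC content, with a correlation of 0.783 in WT ESCs and 0.746 in WT MNs, more closely than with the gene number itself, 0.564 and 0.556.

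Most regions kept their side. A total of 699 regions scored above 0 in both WT states and 462 below 0 in both, while 144 went from below to above and 97 from above to below. The 462 regions below 0 in both had a median of 2 genes, those that went up 4, those that went down 5, and those above 0 in both 10. A change of at least 0.5 on the log2 scale was reached upward by 324 regions (23.1%) and downward by 337 (24.0%), with an interval that left out 0 for 250 and 229 of them. Regions that rose had a median of 3 genes, a GC content of 40.1%, and median scores of -0.86 in WT ESCs and 0.01 in WT MNs. Regions that fell had a median of 9 genes, a GC content of 43.8%, and median scores of 1.59 and 0.58. Both medians lay nearer to 0 in MNs, but the groups were chosen by the change itself, which favours low ESC scores among the regions that rose and high ones among those that fell. Their contacts under 200 kb, relative to the median usable region of all autosomes, also moved. The medians went from 1.03 to 0.96 in the regions that rose and from 0.96 to 1.02 in those that fell. Differences in coverage between chromosomes were not divided out of these values. The part of that local coverage in the score was not tested.

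**Figure D4:**
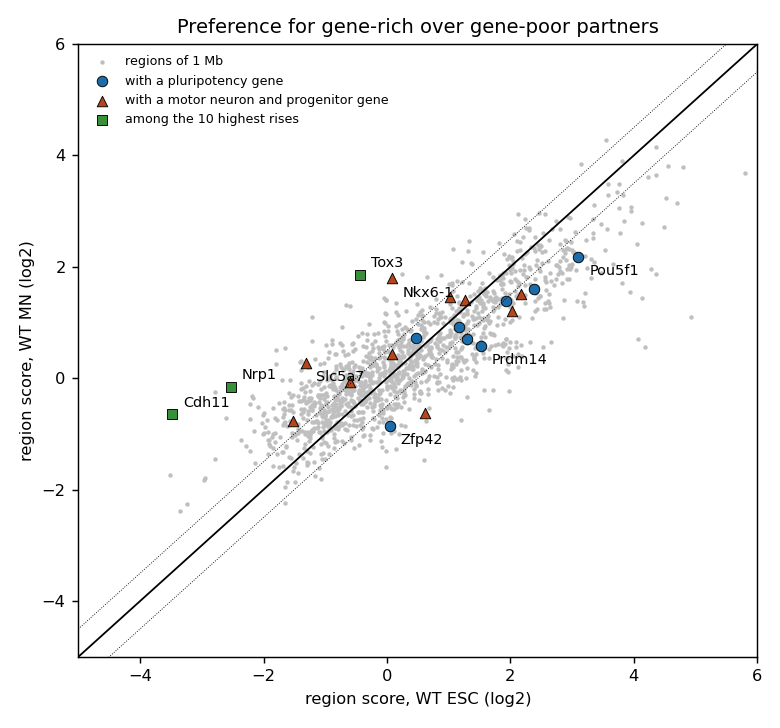
Region scores (log2) in WT MNs against WT ESCs, 1 grey point per 1 Mb region, with circles for regions of pluripotency genes, triangles for motor neuron and progenitor genes and squares for 3 of the 10 largest rises, a line of equality and dotted lines at a change of 0.5. Low scores of ESCs tend to lie above the line and high ones below it, with a correlation of 0.850 over 1402 regions.

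The 10 regions with the largest rise held few genes. The region of Cdh11, a mesenchymal and neural cadherin and the only gene that starts there (chr8:102000001-103000000), scored -3.48 in WT and -3.47 in PATZ1 KO ESCs, and -0.64 in WT and -0.66 in PATZ1 KO MNs, a rise of 2.84 (2.25 to 3.42) in WT. The region of Nrp1 scored -2.53 in WT ESCs, -2.47 in PATZ1 KO ESCs and -0.15 in each MN library. In MNs the Nrp1 region lay near the balance of both classes, and the Cdh11 region stayed on the gene-poor side.

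Other regions crossed from negative to positive scores. The region of Rgs5 and Nuf2 went from -1.65 in WT ESCs to 0.54 in WT MNs. The region of Chd9, a chromatin remodeller, and Tox3, a neuronal HMG-box factor, scored -0.43 in WT and -0.40 in PATZ1 KO ESCs, and 1.86 in WT and 1.85 in PATZ1 KO MNs, a rise of 2.30 (1.84 to 2.75).

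On chromosome 7 a pair of adjacent regions rose as well. The one with Magel2, a gene of the imprinted Prader-Willi domain that is expressed from the paternal copy (chr7:62000001-63000000), scored -1.79 in WT and -1.80 in PATZ1 KO ESCs, and 0.26 in WT and 0.30 in PATZ1 KO MNs. The one before it has no protein-coding gene start and went from -1.80 in WT ESCs to 0.51 in WT MNs. Others among the 10 were a region without gene starts on chromosome 14, from -2.79 to -0.25, the region of Rab30 and Prcp, from -0.66 to 1.31, and that of Glb1l2 on chromosome 9, from -0.60 to 1.30. The rise of the Glb1l2 region turned into a fall of 0.72 when the classes were set by GC content. The rises of the Cdh11, Nrp1 and Tox3 regions did not turn under any alternative, and were lowest with GC classes for Cdh11 (1.16) and Nrp1 (1.15).

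The 10 regions with the largest fall were gene-rich for the most part and rested on fewer contacts, 95 to 434 per WT library. The region of Gja5 and Rnf115 (chr3:96000001-97000000), with 38 genes, scored 4.36 in WT and 4.35 in PATZ1 KO ESCs, and 1.88 in WT and 1.96 in PATZ1 KO MNs, a change of -2.48 (-3.31 to -1.65). The region of Grik4, a kainate receptor subunit, and Sorl1, a sorting receptor, scored 4.92 in WT ESCs, 4.95 in PATZ1 KO ESCs and 1.10 in each MN library, a change of -3.82 (-6.81 to -0.84). The region of Smarca4, the ATPase of the BAF remodelling complex, and Dnm2 went from 4.06 in WT ESCs to 0.70 in WT MNs. The direction of the Grik4 and Smarca4 regions turned with GC classes, to 1.10 and 0.87, and so did that of 4 more of the 10, with Pitpnm2, Mtmr3, Ncoa1 or Shank1, whereas that of the Gja5 region did not.

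Regions were also taken from lists of genes with known roles. The lists were drawn up for this cell system with earlier results of these data known. Of 12 pluripotency genes, 9 lay in 8 usable regions. Of these 8 regions, 6 fell by at least 0.5 and none rose, beside 24.0% and 23.1% of all regions, and the median change was -0.69 beside -0.01 over all regions. Their median score in WT ESCs was 1.41, beside 0.22 over all regions, and regions that fell had high ESC scores in general. All regions are thus not a like background, and regions of equal starting score were not compared. With classes set by GC content 6 of 8 fell, beside 27.7% of all regions, with balanced matrices 5 of 8, beside 24.2%, between 10 and 30 Mb only 4 of 8, beside 24.0%, and in thinned lists 2 of the 5 that could be scored, beside 20.1%.

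The region of Zfp42 (Rex1), a marker of naive pluripotency (chr8:43000001-44000000), scored 0.05 in WT and 0.08 in PATZ1 KO ESCs, and -0.86 in WT and -0.82 in PATZ1 KO MNs. It was the only one of the 8 that changed sides, and its ESC scores were close to 0. Of all regions, 97 (6.92%) went from above to below 0. The region of Prdm14, a repressor that maintains naive pluripotency, went from 1.53 in WT ESCs to 0.58 in WT MNs, and that of Pou5f1, which encodes OCT4, from 3.10 to 2.18. The regions of the Klf2, Klf4 and Esrrb transcription factors scored 1.93, 1.30 and 2.39 in WT ESCs and 1.39, 0.71 and 1.60 in WT MNs. The interval of the Klf4 change included 0 (-1.23 to 0.05). The change of the Esrrb region turned to 0.12 with GC classes. The other usable regions of the list scored 1.17 in WT ESCs and 0.92 in WT MNs (Tfcp2l1), and 0.47 and 0.73 (Nanog and Dppa3 in one region). The last 3 genes lay in regions with at least 60 covered bins, which scored 1.76 and 1.89 (Sox2), 1.72 and 0.88 (Tbx3), and 2.33 and 1.98 (Lin28a), with intervals of the change that included 0.

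Genes of motor neurons and their progenitors went in both directions. Of 10 usable regions with 11 of 16 listed genes, 4 rose and 3 fell by at least 0.5, beside 23.1% and 24.0% of all regions, with a median change of 0.39. With balanced matrices 2 rose and 3 fell, beside 20.3% and 24.2%. The region of Nkx6-1, a homeodomain factor of ventral progenitors (chr5:101000001-102000000), scored 0.08 in WT and 0.07 in PATZ1 KO ESCs, and 1.79 in WT and 1.68 in PATZ1 KO MNs, a rise of 1.72 (0.80 to 2.63). It rose under every alternative that gave a value, by at least 1.04. The region of Slc5a7, the choline transporter of cholinergic terminals, went from -1.32 in WT ESCs to 0.28 in WT MNs, and that of Onecut1 from -1.52 to -0.76, but both changes turned with GC classes, to -0.12 and -0.27. The region of Isl1, the LIM homeodomain factor of motor neurons, went from -0.60 to -0.06. The intervals of the changes of Isl1 (-0.06 to 1.13) and Onecut1 (-0.14 to 1.65) included 0.

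The 3 regions of this list whose score was lower by at least 0.5 in WT MNs were that of Chat and Slc18a3, which make and store acetylcholine, from 2.03 in WT ESCs to 1.20 in WT MNs, that of Pou3f1, from 2.17 to 1.51, and that of Ebf1, from 0.61 to -0.63, which turned to 0.93 with GC classes. All 3 changes had an interval that included 0, from -1.84 to 0.18 for Chat, from -1.37 to 0.04 for Pou3f1 and from -2.56 to 0.08 for Ebf1. The other 5 listed genes lay in regions with fewer covered bins. When regions with at least 60 covered bins were admitted, an alternative chosen after seeing the data, the Olig2 region scored 3.52 in WT ESCs and 1.12 in WT MNs, and the Mnx1 region 2.71 and 1.58. The Lhx3 region went the other way, from 2.50 to 3.57, with an interval of the change from -0.02 to 2.16. The regions of Isl2 and Aldh1a2 scored 1.36 and 0.89 in WT ESCs and 0.74 and 1.28 in WT MNs, and both intervals included 0. The regions of Neurog2, Foxp1 and Pax6 moved by 0.42, 0.14 and 0.36.

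Of the Hox clusters, the 3 in usable regions moved by less than 0.5, as did 741 of all 1402 regions. The HoxA region scored 1.82 in WT ESCs and 1.42 in WT MNs, the HoxC region 2.25 and 2.69, and the HoxD region 1.02 and 1.33. The interval of the HoxC change was wide, from -0.82 to 1.70. With GC classes 2 of the 3 rose and 1 fell, beside 26.5% and 27.7% of all regions. With balanced matrices 1 rose and 1 fell, beside 20.3% and 24.2%. Between 10 and 30 Mb only, 1 rose and 1 fell, beside 26.1% and 24.0%. Of 10 regions that hold the start of a long neuronal gene, 1 rose and 2 fell, beside 23.1% and 24.0% of all regions. With GC classes 5 rose and none fell, beside 26.5% and 27.7%. The region of the axon guidance receptor Robo2 fell from -0.08 to -0.72, and its change turned to 1.75 with GC classes. The region of Patz1 itself scored 0.17 in WT and 0.14 in PATZ1 KO ESCs, and 0.02 in WT and 0.00 in PATZ1 KO MNs. The region of the desmosomal gene Dsp went from 0.81 to 0.03 and turned to 0.62 with GC classes. The regions of the retinoic acid targets were not usable at 100 bins. At 60 bins that of Cyp26a1 and Cyp26c1, which degrade retinoic acid, scored 2.33 in WT ESCs and 1.07 in WT MNs, and that of the receptor gene Rara 3.13 and 5.0, with an interval of the change from -1.41 to 5.14.

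The promoters of 4 genes named above are shown: those of Tox3 and Nrp1, whose regions were among the 10 largest rises, of Nkx6-1, whose region rose under every alternative that gave a value, and of Zfp42, the pluripotency region that changed sides. That of Cdh11 is not shown. The sequences run from 250 bases before to 50 bases after the RefSeq start (GRCm38.p6), 5' to 3' on the gene's strand, with each CpG dinucleotide in capitals. CpG reads the same on both strands and its matches do not overlap. The 300 bases held 52 CpG in Tox3 (chr8:90348203-90348502, minus strand), 14 in Nrp1 (chr8:128358823-128359122, plus strand), 40 in Nkx6-1 (chr5:101664662-101664961, minus strand) and 11 in Zfp42 (chr8:43306960-43307259, minus strand). Of 32851 RefSeq promoters of that length, 94.6% held at least 1 CpG, with a median of 7, and 0.575%, 36.3%, 3.91% and 41.4% held as many as these genes or more.
Tox3: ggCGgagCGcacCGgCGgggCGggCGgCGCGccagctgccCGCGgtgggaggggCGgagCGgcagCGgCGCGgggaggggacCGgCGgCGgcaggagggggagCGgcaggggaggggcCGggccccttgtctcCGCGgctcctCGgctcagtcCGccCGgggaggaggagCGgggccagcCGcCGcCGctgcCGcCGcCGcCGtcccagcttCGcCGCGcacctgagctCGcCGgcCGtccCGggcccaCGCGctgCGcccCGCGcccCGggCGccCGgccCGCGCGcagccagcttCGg
Nrp1: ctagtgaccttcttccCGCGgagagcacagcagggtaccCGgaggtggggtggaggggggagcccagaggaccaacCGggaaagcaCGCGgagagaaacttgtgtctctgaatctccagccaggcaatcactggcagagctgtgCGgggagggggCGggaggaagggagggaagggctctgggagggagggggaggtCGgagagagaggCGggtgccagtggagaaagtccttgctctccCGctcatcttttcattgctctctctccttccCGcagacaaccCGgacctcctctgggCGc
Nkx6-1: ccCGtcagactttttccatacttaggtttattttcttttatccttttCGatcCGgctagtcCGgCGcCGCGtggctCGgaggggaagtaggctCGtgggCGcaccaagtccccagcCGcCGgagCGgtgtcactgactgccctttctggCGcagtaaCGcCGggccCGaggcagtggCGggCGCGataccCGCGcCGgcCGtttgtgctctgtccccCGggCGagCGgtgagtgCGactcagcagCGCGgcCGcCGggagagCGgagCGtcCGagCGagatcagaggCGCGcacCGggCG
Zfp42: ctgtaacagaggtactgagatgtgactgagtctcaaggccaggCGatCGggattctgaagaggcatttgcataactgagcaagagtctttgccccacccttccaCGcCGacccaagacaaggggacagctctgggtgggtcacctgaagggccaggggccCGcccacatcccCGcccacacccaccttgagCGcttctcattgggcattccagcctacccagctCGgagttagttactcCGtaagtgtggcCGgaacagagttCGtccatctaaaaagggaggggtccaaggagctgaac

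Relative to the expected value, regions of olfactory receptor genes and of zinc finger genes met each other more often in MNs. Those of vomeronasal Vmn1r genes did so too, with overlapping intervals. Once matrices were balanced, the rise was smaller for olfactory receptor and zinc finger genes, and the zinc finger intervals overlapped. The order of the Vmn1r values then turned. Of 53 regions with at least 5 olfactory receptor genes (Olfr), 32 were usable, and 41 blocks joined them. These blocks held 349 (WT) and 347 (PATZ1 KO) contacts in ESCs, and 335 (WT) and 332 (PATZ1 KO) contacts in MNs. Over the expected value this was 1.09 in WT (0.983 to 1.22) and 1.10 in PATZ1 KO ESCs, and 2.20 in WT (1.97 to 2.45) and 2.19 in PATZ1 KO MNs. Olfactory receptor regions thus met each other at close to the expected value in ESCs and above it in MNs. Of the 32 regions 25 belonged to the bin of most genes, as did 8 of the 10 usable zinc finger regions described next, and that bin as a whole went from 1.73 to 2.46. Whether the rise of the families goes beyond that of the bin was not tested.

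The rise was seen on both chromosomes that held most of these blocks. On chromosome 2, with 24 blocks, the value went from 0.978 in WT ESCs to 2.33 in WT MNs, and on chromosome 7, with 10 blocks, from 0.954 to 2.15. On chromosome 9, with 3 blocks, it was 1.72 and 2.18, with intervals that overlap. It was higher in MNs on 4 of the 6 chromosomes with such blocks. The contacts of the same regions with gene-rich regions went from 0.830 to 1.09 and with gene-poor regions from 0.852 to 0.939, so that the regions as a whole were met more often beyond 10 Mb. With balanced matrices, which divide out how often each region is met, the values were 1.29 in WT ESCs (1.16 to 1.43) and 1.67 in WT MNs (1.497 to 1.860).

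Regions with at least 5 zinc finger genes (Zfp), most of which encode KRAB repressors in such arrays, gave 10 usable regions of 20 and 7 blocks, all on chromosome 7. They held 93 (WT) and 92 (PATZ1 KO) contacts in ESCs, and 176 (WT) and 175 (PATZ1 KO) contacts in MNs, which was 0.981 times the expected value in WT ESCs (0.792 to 1.20) and 3.13 times in WT MNs (2.68 to 3.63). After balancing the values were 1.07 (0.867 to 1.32) and 1.38 (1.18 to 1.60), and these intervals overlap. The 7 blocks joined 5 of the 10 usable regions. Of all 10, 6 fell in the score and none rose, beside 24.0% and 23.1% of all regions. These 10 started high, with a median score of 2.05 in WT ESCs beside 0.22 over all regions. The region of Wdr62 on chromosome 7, with 6 such genes, scored 4.69 in WT ESCs and 3.14 in WT MNs. Of the 32 olfactory receptor regions, with a median score of -0.24 in WT ESCs, 10 rose and 4 fell, beside 23.1% and 24.0% of all regions. Blocks between regions of any chemosensory receptor family, Olfr, Vmn1r or Vmn2r, were at 0.958 in WT ESCs and 1.81 in WT MNs. The 6 blocks between vomeronasal Vmn1r regions had 58 contacts in WT ESCs and 43 in WT MNs and stood below the expected value in both, at 0.442 (0.336 to 0.572) and 0.734 (0.531 to 0.989). With balanced matrices the order turned, to 0.876 (0.665 to 1.13) and 0.791 (0.572 to 1.07), and both intervals included 1.

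The ends of chromosomes, taken as the first and last 10 usable regions, differed between the states in opposite ways. Usable regions are chosen by their listed pairs beyond 10 Mb, so these regions need not lie at the very ends. On chromosome 18, 37 of 88 regions with a listed pair were usable, and on chromosome 6, 143 of 147. The centromeric and the telomeric end stand for these usable regions below. The first 10 usable regions of each chromosome, at the centromeric end, met the rest of the chromosome at 0.851 times the expected value in WT (0.843 to 0.859) and 0.851 in PATZ1 KO ESCs, and 1.14 in WT (1.12 to 1.15) and 1.14 in PATZ1 KO MNs. The last 10 usable regions met it at 1.56 times in WT (1.55 to 1.57) and 1.56 in PATZ1 KO ESCs, and 1.12 in WT (1.11 to 1.13) and 1.12 in PATZ1 KO MNs. Summed over chromosomes, the excess of long-distance contact at the telomeric end in ESCs was thus smaller in MNs, and the deficit at the centromeric end was replaced by a small excess.

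The pattern was shared by nearly all chromosomes. At the centromeric end the value was higher in WT MNs on 17 of 18 chromosomes, and it was above 1 on 2 chromosomes in WT ESCs and on 15 in WT MNs. At the telomeric end it was higher in WT MNs on 3 of 18, chromosomes 2, 4 and 5. It was above 1 there on 13 chromosomes in WT ESCs and on 12 in WT MNs, with medians over chromosomes of 1.39 and 1.11. These were not all the same chromosomes, as chromosome 2 stood at 0.810 in WT ESCs and 1.29 in WT MNs. The direction was the same in each gene class of the end regions. Gene-poor end regions at the centromeric end went from 0.700 in WT ESCs to 0.939 in WT MNs and gene-rich ones from 0.908 to 1.30, and at the telomeric end gene-poor ones went from 1.74 to 1.08 and gene-rich ones from 1.35 to 1.10. Contacts under 200 kb at the ends, relative to the chromosome, differed less: their medians over chromosomes were 0.902 in WT ESCs and 0.948 in WT MNs at the centromeric end, and 1.03 and 1.07 at the telomeric end. In the PATZ1 KO libraries they were 0.904 and 0.955 at the centromeric end, and 1.06 in ESCs and 0.981 in MNs at the telomeric end, the opposite order to WT.

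**Figure D5:**
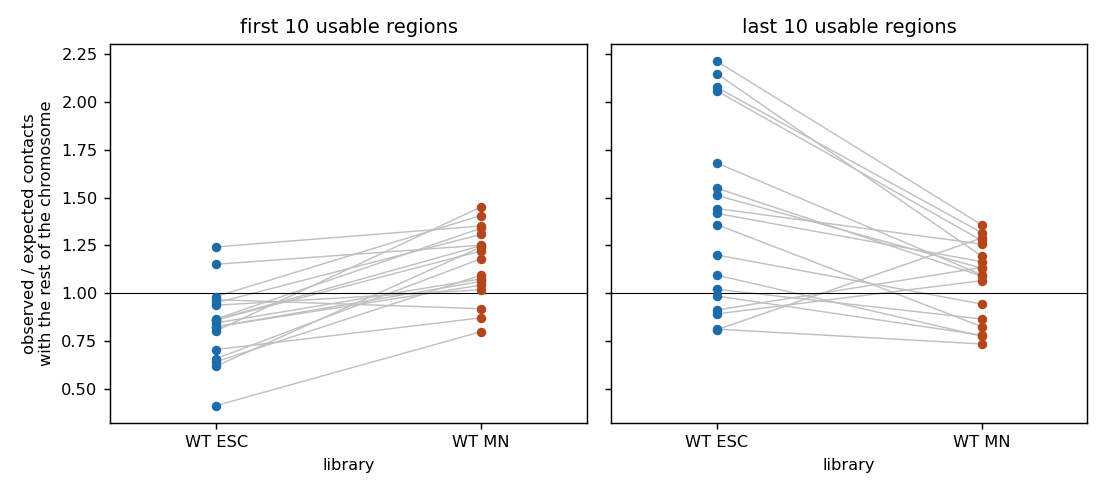
Observed over expected contacts beyond 10 Mb of the first 10 and the last 10 usable regions, 1 point per chromosome, in WT ESCs and WT MNs, with lines joining the same chromosome. The centromeric end is higher in WT MNs on 17 of 18 chromosomes and the telomeric end on 3 of 18.

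Between genotypes, whose libraries share the listed pairs of each state, the preference strength and the region scores differed little. The preference strength of PATZ1 KO minus WT was -0.0018 in ESCs (-0.021 to 0.017) and -0.00054 in MNs (-0.026 to 0.024). These intervals treat the counts of both libraries as independent, although they are summed over the same listed pairs. They therefore do not measure the counting error of this difference. Of 4460 blocks, 2 (0.0448%) were at least 1.5-fold higher and 2 (0.0448%) at least 1.5-fold lower in PATZ1 KO ESCs, and 5 (0.112%) and 5 (0.112%) in MNs. None of these blocks held more than 4 contacts in either library of the state compared, and every interval of their ratio included 1. No region score differed by 0.5 or more between genotypes (0.0% of 1407 regions in ESCs and 0.0% of 1402 in MNs). The differences ran from -0.32 to 0.26 in ESCs and from -0.26 to 0.33 in MNs.

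Of the 5 regions at either end of those ranges in each state, 1 was named in both states. The region of Unc5d, a netrin receptor, was lower in PATZ1 KO ESCs, at -0.28, and higher in PATZ1 KO MNs, at 0.25. Its block with the region of Itfg1, 56 Mb away, held 42 (WT) and 21 (PATZ1 KO) contacts in ESCs, and 10 (WT) and 20 (PATZ1 KO) contacts in MNs, all from 5 listed pairs in each state, of which a single pair gave 24 contacts in WT ESCs. The Tcf7l1 and Tet3 block had 286 contacts in each MN library. Single pairs of bins with many contacts could differ more. On chromosome 17 the bins that start at 39840001 and 56000001, the second with Stap2 and Mpnd, had 45 (WT) and 15 (PATZ1 KO) contacts in ESCs, and 2 (WT) and 30 (PATZ1 KO) contacts in MNs, so that the order of the genotypes turned between the states. The pair with the adjacent bin at 39848001 had 44 and 27 contacts in ESCs. Whether reads map uniquely to these bins of chromosome 17 was not tested.

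What the shared list leaves free is how many contacts a listed pair had beyond the first. In ESCs, the share of rich-rich pairs with 2 or more contacts was 3.18% in WT and 2.92% in PATZ1 KO, and that of poor-poor pairs 2.70% and 2.15%. In MNs the values were 2.43% and 2.34% for rich-rich pairs, and 1.33% and 1.71% for poor-poor pairs. PATZ1 KO over WT was thus 0.920 (0.867 to 0.976) for rich-rich and 0.795 (0.739 to 0.856) for poor-poor pairs in ESCs, and 0.962 (0.881 to 1.05) and 1.28 (1.12 to 1.47) in MNs. The other 4 kinds of pairs lay between, from 0.820 (middle-poor) to 0.895 (rich-poor) in ESCs and from 1.01 (middle-rich) to 1.12 (middle-poor) in MNs. The direction was thus shared by all 6 kinds in ESCs and by 5 of 6 in MNs. The MN intervals of rich-poor, middle-middle and middle-rich pairs included 1. By the contacts of the whole lists, the deeper library was the WT library in ESCs and the PATZ1 KO library in MNs. It had the higher share in the kinds that shared the direction, and the part of depth in this was not tested. The preference strength from these shares was 0.21 in WT ESCs (0.13 to 0.30), 0.17 in PATZ1 KO ESCs (0.09 to 0.26), 0.13 in WT MNs (-0.01 to 0.27) and 0.17 in PATZ1 KO MNs (0.04 to 0.30), so that the intervals of all 4 libraries overlap.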

How the data were processed

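Micro-C libraries were prepared with a Dovetail kit, and mapping and contact matrices were made by that company for the authors. The submitters' processing notes name mm10, and the aligner is not given in the sources used here. No listed bin of the 20 chromosomes ran past the end of GRCm38, whose RefSeq sequence was used. Protein-coding genes and their starts were taken from the GENCODE annotation of that build, and promoters from RefSeq. The interaction frequencies that the authors deposited are unscaled counts of contacts per pair of 8 kb bins. The adjusted frequencies, also deposited, are a signal made with HiCcompare by joint normalization of WT and KO against distance. The list columns with the authors' fold changes and p-values were not used.

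A region was usable with listed pairs in at least 100 bins in both states, and a distance with at least 10 blocks. The named blocks were those with the highest lower limits, 5 per WT state, 5 per direction of MNs over ESCs and 3 per direction of KO over WT. The named regions were the 10 with the largest rise and fall, 5 per direction for KO minus WT, and those of the gene lists, with listed genes and the 2 longest genes named. Some of the regions and genes so chosen are not reported here. The contacts, regions and gene lists were chosen with earlier results of these data known. Intervals were exact Poisson for a block or class, exact binomial for ratios of blocks, and derived from the counts for log2 values. Alternatives were matrix balancing, each pair counted once, adjusted frequencies, GC classes, 2 Mb regions, thinned lists, 10 to 30 Mb only and larger folds. The 60-bin limit and leaving out chromosome 1 or chromosomes 6 and 8 were chosen after seeing the data, as were all alternatives for gene families and chromosome ends. Scripts were tested on simulated data and used python 3.11.15, numpy 2.4.6, pandas 2.3.3, scipy 1.17.1 and matplotlib 3.10.9.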

Additional observations from a re-analysis of the deposited data

Results flagged for a closer look

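In 5 of the 6 kinds of region pairs, the share of listed pairs with 2 or more contacts was lower in PATZ1 KO than in WT ESCs and higher in PATZ1 KO than in WT MNs. PATZ1 KO over WT was 0.795 in ESCs and 1.28 in MNs for poor-poor pairs, and 0.820 and 1.12 for middle-poor pairs. For rich-poor pairs it was 0.895 and 1.08, for middle-middle pairs 0.875 and 1.07, and for middle-rich pairs 0.879 and 1.01, and the MN intervals of these 3 kinds included 1. For rich-rich pairs it was below 1 in both states, at 0.920 and 0.962. With 1 library per group, the difference between the states was not tested. The library with more contacts in the whole list was the WT library in ESCs and the PATZ1 KO library in MNs.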

How the results depend on the processing

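No paired analysis was possible because each group was 1 library, and for the same reason no library could be left out. Of 109 values under alternatives, 70 stayed within counting error or, for counts, within 1.5 times, and 39 did not. The cause of each move was not tested. The fall of the preference strength from WT ESCs to WT MNs (-0.22) kept its direction throughout, though the interval of the last value given here includes 0: it was -0.28 with GC classes, -0.090 with 2 Mb regions, -0.17 in thinned lists, -0.19 between 10 and 30 Mb, -0.19 from 60 bins, -0.17 without chromosomes 6 and 8, -0.19 without chromosome 1, and -0.057 (-0.21 to 0.10) with only the contacts beyond the first of each pair. With those last contacts KO minus WT was -0.028 in ESCs and 0.035 in MNs, and the strength of the PATZ1 KO libraries was 0.15 in ESCs and 0.16 in MNs, which is no fall. Values from those contacts are on a narrower log2 scale than the others. The 725 higher and 757 lower blocks became 459 and 444 with balancing and 295 and 377 at 3-fold. Without chromosomes 6 and 8, which held 49.7% and 22.8% of all blocks compared, they became 212 and 196. The KO blocks, 4 in ESCs and 10 in MNs, became 1 and 3 with balancing, 0 and 0 with each pair counted once, 1 and 2 without chromosomes 6 and 8, and 1 and 3 at 2-fold, and 8 in ESCs in thinned lists. The 337 regions that fell (24.0%) became 204 in thinned lists, which is 20.1% of the 1013 regions scored there. The 324 that rose (23.1%) became 624 from 60 bins, which is 27.2% of 2297 regions. Regions that moved between genotypes, 0 in both states, became 1 in ESCs and 2 in MNs with GC classes, and 1 in ESCs from 60 bins. Of the 324 regions that rose, 250 stayed past 0.5 with balancing and 190 of 318 scored with GC classes, and of the 337 that fell, 279 and 209 of 328. The MN over ESC ratio of the families (2.01 for Olfr, 3.19 for Zfp) was 1.30 and 1.28 with balancing, and 2.45 for Olfr from 60 bins. Thinned lists left no Zfp block. At the centromeric end the ratio (1.34) was 1.24 in thinned lists, 1.41 from 60 bins and 1.43 without chromosomes 6 and 8, and at the telomeric end (0.720) it was 0.745, 0.684 and 0.764. Balancing gives no value for ends, since it sets each region to its expected sum. A limit of 30 expected contacts left 0 blocks and could not be used. With GC classes the score change turned for the regions of Mtmr3 (0.68), Ebf1 (0.93), Ncoa1 (1.09), Esrrb (0.12), Dsp (0.62), Robo2 (1.75), Slc5a7 (-0.12), Pitpnm2 (0.45), Shank1 (0.016), Smarca4 (0.87), Glb1l2 (-0.72), Grik4 (1.10) and Onecut1 (-0.27), and for 1 more region (0.023). It also turned for Shank1 in thinned lists (0.41) and from 60 bins (0.21), and for Robo2 from 60 bins (0.21).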
